A study of Mus musculus with 9 samples.

Results

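The 4 IFITM family genes Ifitm1, Ifitm2, Ifitm3 and Ifitm6 were followed in mouse granulocyte-macrophage progenitors (GMPs) that were labelled null, heterozygous or wild type for Dicer1. The members were chosen by gene symbol. Each symbol was carried alone by 1 probe set, giving 4 of the 45101 probe sets on the array and 4 of 18193 named genes. GMPs are bone marrow progenitors of neutrophils and monocytes, and Dicer1 encodes the ribonuclease that releases mature microRNAs from their precursors.

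Donor fetal livers were taken at embryonic day 13.5, and their cells were injected into C57Bl/6 recipients aged 6 to 8 weeks that had received 8.5 Gy of radiation. Marrow was taken 6 to 10 weeks later and EYFP-positive GMPs were sorted. Null cells had the Dicer fl/fl genotype, heterozygous (het) cells Dicer -/wt, and wild-type (wt) cells 2 intact alleles, with 3 arrays for each group. Donor cells of all 3 groups carried Cebpa-Cre, which drives the recombinase in cells that have used the Cebpa gene, and the R26-LSL-Eyfp reporter that it switches on. The labels describe all samples as female, do not name the strain of the donors, and do not say which replicates came from separate fetal livers. Each p-value is thus set against the variation among these arrays, some of which may be technical.

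IFITM proteins are small membrane proteins that are induced by interferons and hinder the fusion of enveloped viruses with cell membranes. IFITM3 works mainly in endosomes and lysosomes, where it limits the entry of viruses such as influenza, IFITM2 is also largely endosomal, and IFITM1 lies mostly at the cell surface. In the mouse, Ifitm1 and Ifitm3 are also known from early germ cells, and Ifitm6 from blood and marrow cells. Interferon signals reach these genes through STAT and IRF transcription factors, which bind the interferon-stimulated response element.

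The 4 genes lie in 1 cluster on mouse chromosome 7, in the order Ifitm2, Ifitm1, Ifitm3 and Ifitm6 by RefSeq coordinates of GRCm38.p6. Ifitm2 spans chr7:140954837-140959686, Ifitm1 chr7:140967429-140969827, Ifitm3 chr7:141009590-141010744 and Ifitm6 chr7:141015812-141016892. The array files give no coordinates of their own. RefSeq held 1 promoter window for each of the 4 genes, from 250 bases before to 50 bases after a transcript start. For Ifitm1 and Ifitm2 this start lies inside the RefSeq gene record, and other starts were not examined. The 100 bases before that start are shown because the members share an interferon-linked family but differed in how they moved. Capitals mark motif matches, in the Ifitm3 run only those of the response element, and the runs read 5′ to 3′ on the gene's strand.
Ifitm1, chr7:140967976-140968075, plus strand: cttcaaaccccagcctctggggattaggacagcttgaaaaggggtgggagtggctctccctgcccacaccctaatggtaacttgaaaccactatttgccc
Ifitm2, chr7:140955962-140956061, minus strand: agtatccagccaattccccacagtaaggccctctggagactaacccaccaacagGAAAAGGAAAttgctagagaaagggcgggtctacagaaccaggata
Ifitm3, chr7:141010745-141010844, minus strand: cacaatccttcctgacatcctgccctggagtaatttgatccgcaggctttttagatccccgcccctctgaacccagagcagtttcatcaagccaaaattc
Ifitm6, chr7:141016893-141016992, minus strand: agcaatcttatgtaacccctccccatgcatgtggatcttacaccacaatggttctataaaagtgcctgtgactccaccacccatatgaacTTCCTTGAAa
First 30 transcribed bases of Ifitm3, chr7:141010715-141010744, minus strand: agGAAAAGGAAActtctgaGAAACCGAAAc

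The core of the interferon-stimulated response element was searched on both strands as GAAA, any 2 bases, and GAAA again. It stood at bases -46 to -37 of Ifitm2 and at bases 3 to 12 and 20 to 29 of Ifitm3, counted from the first transcribed base as 1, and 3.44% of the 32851 mouse promoter windows of 300 bases held it. The interferon-gamma activated site, searched as TTCNNNGAA, was found at bases -10 to -2 of Ifitm6 and at bases 14 to 22 of Ifitm3, where it overlaps the second core, and 8.3% of windows held it. The Ifitm1 window held no match to either pattern. A match describes these letters only, and their use in these cells was not measured.

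RNA was measured as MAS5 signals, linear values whose trimmed mean was 100 on each array as deposited. Signals of different probe sets cannot be compared with each other, so levels are compared only between genotypes of the same gene. Dicer1 read 115, 101 and 97.2 in null cells, 169, 201 and 187 in het cells and 244, 228 and 223 in wt cells, and its log2 difference in null against wt cells was -1.07 (limma SE 0.11, adjusted p = 1.88e-05). In het against wt cells its difference was -0.31 (limma SE 0.11, adjusted p = 0.217) and did not pass, although all het arrays were below all wt arrays. All 14 fixed markers of GMPs were above the signal filter, and their summed signal ranged from 33113 to 35570 in null, 32134 to 36995 in het and 31666 to 35572 in wt arrays. Sums here and below follow their brightest probe sets, so a sum does not stand for every gene of its list. Xist and Eif2s3y are transcripts of the inactive X and of the Y chromosome. Wt replicate 2 was the 1 array with signals of female cells, with an Xist signal of 2610 against 16.4 to 30.2 on the others and an Eif2s3y signal of 1.13 against 622 to 859. The other 8 arrays had signals of male cells. The label female is not said to mean the donors or the recipients. Ifi202b, an interferon-inducible gene whose transcript level is known to differ between mouse strains, averaged 331 in null, 262 in het and 0.813 in wt cells, so a marker of this kind separated the wt group from both others. The part of the donors' sex or strain in the IFITM differences was not tested, and each member's values without wt replicate 2 are given with its results.

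Ifitm1 had the largest log2 differences of the 4 members in all 3 comparisons. Its signal was 743, 1154 and 864 in null cells, 575, 486 and 541 in het cells, and 135, 415 and 170 in wt cells. The 3 groups did not overlap, with the null arrays highest, the het arrays between and the wt arrays lowest, and the highest wt value was that of wt replicate 2. The means were 920 ± 211 in null, 534 ± 44.9 in het and 240 ± 153 in wt cells (SD, n = 3 each). On the log2(signal + 12) scale used for all tests, Ifitm1 rose by 2.03 in null against wt cells (SE 0.28, 95% interval 1.42 to 2.63, limma adjusted p = 0.000324), a 4.07-fold change, which ranked 11 among all rises of that comparison.

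Ifitm1 also rose in het against wt cells, by 1.28 (SE 0.28, interval 0.67 to 1.88, limma adjusted p = 0.039), which was 2.42-fold and ranked 10 among rises. This call was close to the threshold. Without any 1 of the 3 het arrays, or without wt replicate 1 or wt replicate 3, the adjusted p was 0.111 to 0.156, and the difference stayed between 0.97 and 1.34. Without wt replicate 2 the het-wt difference was 1.74 (adjusted p = 2.73e-05) and the null-wt difference 2.49 (adjusted p = 5.02e-07).

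The step between null and het cells did not pass for Ifitm1 although all 3 null arrays were above all 3 het arrays. The difference was 0.75 (SE 0.28, interval 0.15 to 1.35, limma unadjusted p = 0.0184, adjusted p = 0.0935). It passed without wt replicate 2 (adjusted p = 0.00272), in a fit of the null and het arrays alone (0.00315) and with the replicate number as a block (0.0417). The wt arrays enter this comparison only through the shared estimate of the spread, and the wt group had a log2 SD of 0.81 for Ifitm1, larger than in 99.5% of the genes tested. The median gene had a log2 SD of 0.15 in that group.

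**Figure D1:**
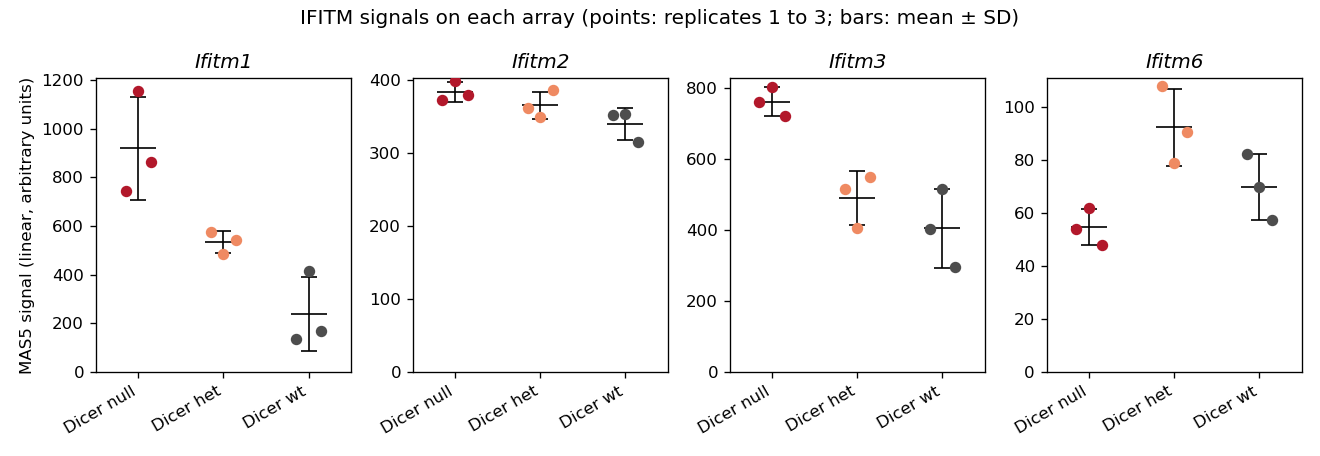
MAS5 signal of each IFITM gene (linear, arbitrary units, vertical axis from 0) on the 3 arrays each of Dicer null, het and wt GMPs; points are replicates 1 to 3 and bars the mean ± SD. Ifitm1 separates all 3 groups, Ifitm3 separates null arrays (720 to 801) from the rest, Ifitm2 stays between 314 and 398, and Ifitm6 has its highest mean in het arrays.

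Ifitm3, the endosomal restriction factor, rose in null cells against both other groups. Its signal was 760, 801 and 720 in null cells, 514, 404 and 550 in het cells, and 403, 516 and 295 in wt cells. All null arrays were above all others, while het and wt arrays overlapped. The null-wt difference was 0.92 (SE 0.16, interval 0.58 to 1.26, limma adjusted p = 0.0015), a 1.90-fold change. It was 1.11 without wt replicate 2 (adjusted p = 0.000181) and passed in each of the 9 fits with 1 array left out.

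The null-het difference of Ifitm3 was 0.63 (SE 0.16, interval 0.29 to 0.97, limma adjusted p = 0.0164). The call was lost when null replicate 2 (adjusted p = 0.0503) or het replicate 2 (0.0812) was left out, and het replicate 2 had the lowest het signal. Het against wt cells gave 0.29 (SE 0.16, interval -0.05 to 0.63, adjusted p = 0.483), so the data allow a rise of up to that upper bound as well as no rise. That difference was 0.48 without wt replicate 2 (adjusted p = 0.15) and 0.09 without wt replicate 3 (adjusted p = 0.863), and passed in 0 of the 9 limma fits with 1 array left out. In the order of levels in the fit of all 9 arrays, null was separated from het, and het was not separated from wt.

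Ifitm2 had the smallest SD within each group on the log2 scale of the 4 members. Its signal was 372, 398 and 379 in null cells, 361, 349 and 385 in het cells, and 352, 353 and 314 in wt cells. The null arrays were all above the wt arrays, and the het arrays overlapped both groups. The differences were 0.17 in null against wt (interval -0.02 to 0.36, limma adjusted p = 0.217), 0.10 in het against wt (interval -0.08 to 0.29, adjusted p = 0.705) and 0.07 in null against het (interval -0.12 to 0.25, adjusted p = 0.678). None passed, and the upper bound of the null-wt interval lies below the values measured for Ifitm1 and Ifitm3. Its log2 SD within groups was 0.05 in null, 0.07 in het and 0.09 in wt cells, where the median gene had 0.15, 0.14 and 0.15. Without wt replicate 2 its null-wt difference was 0.20 and its het-wt difference 0.13 (adjusted p of 0.23 and 0.669).

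Ifitm6, the family member known from mouse blood and marrow cells, fell in null against het cells, where Ifitm3 rose. Its signal was 54.1, 61.8 and 48.1 in null cells, 108, 78.9 and 90.6 in het cells, and 82.4, 69.7 and 57.4 in wt cells. Null arrays were all below het arrays, and wt arrays overlapped both. Ifitm6 fell by 0.64 in null against het cells (log2 difference -0.64, SE 0.15, interval -0.97 to -0.32, limma adjusted p = 0.0123), to 54.7 ± 6.92 in null cells, against 92.4 ± 14.5 in het cells (SD, n = 3 each). The call was lost without null replicate 3 (adjusted p = 0.0535) or het replicate 1 (0.0663). Null against wt gave -0.29 (interval -0.62 to 0.04, adjusted p = 0.23) and het against wt 0.35 (interval 0.03 to 0.68, unadjusted p = 0.0363, adjusted p = 0.34), neither of which passed. Without wt replicate 2 these differences were -0.29 and 0.36 (adjusted p of 0.339 and 0.438), and the null-het call held (adjusted p = 0.0132).

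**Figure D2:**
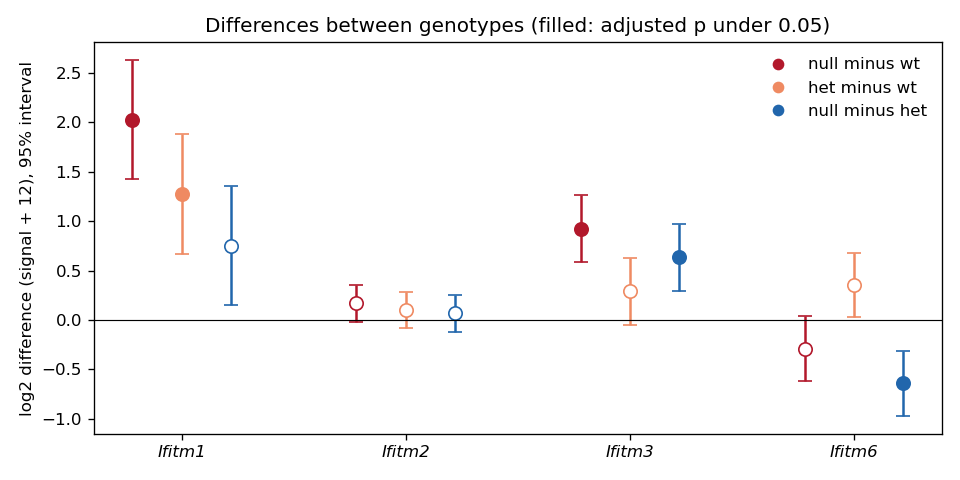
Log2 differences of signal + 12 (vertical axis) for each IFITM gene in null minus wt, het minus wt and null minus het, with 95% intervals from the fit over all genes. Filled points have an adjusted p under 0.05: Ifitm1 at 2.03 and 1.28, Ifitm3 at 0.92 and 0.63, and Ifitm6 at -0.64.

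Across the family, 2 of 4 genes rose in null against wt cells, where 7.6% of the 12347 genes tested rose and 8.09% fell. In het against wt cells 1 of 4 rose, against 0.697% of genes higher and 0.697% lower. In null against het cells 1 of 4 rose and 1 fell, against 6.84% higher and 7.49% lower. The null and het contrasts with wt cells share the same 3 wt arrays. Arrays of the 2 groups did not overlap for 3 members higher in null than in wt (14.1% of genes), 1 higher in het than in wt (8.48%), and 2 higher (14.7%) and 1 lower (18%) in null than in het. In the fit over 22365 single probe sets the same 5 calls were made, where 5.91% of probe sets were higher in null than in wt, 0.528% higher in het than in wt, and 5.3% higher and 5.54% lower in null than in het. There the Ifitm1 het-wt call had an adjusted p of 0.0487 and was lost in 13 of 19 alternatives, and the count in null against het moved by more than 1.5 times in 7 of 19. All 4 members passed the signal filter of 8.49, and their lowest signal on any array was 48.1.

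Of the other family members on the array, the signals of Ifitm5 were 2.08 to 16.4, those of Ifitm7 8.11 to 24.2 and those of Ifitm10 0.745 to 11.4 over the 9 arrays. Ifitm5 is known from bone-forming cells. Ifitm5 and Ifitm10 were below the filter and were not tested, and Ifitm7 gave 0.20 in null against wt (adjusted p = 0.611). Ifitm5 lies beside Ifitm2 in the cluster, and Ifitm7 is on chromosome 16.

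The tested genes on both sides of the cluster showed no rise of the size seen for Ifitm1 and Ifitm3. Of the 20 nearest protein-coding genes, 10 on each side, 14 were tested, and their null-wt differences ranged from -0.48 to 0.27 with a median of -0.07. By limma 1 fell and 0 rose in null against wt cells (at unadjusted p under 0.05, 2 fell and 0 rose). Over all genes tested, 8.09% fell and 7.6% rose in that comparison. The 1 neighbour called was Sirt3, a mitochondrial deacetylase, at -0.48 (SE 0.10, adjusted p = 0.00476), which was also lower in null than in het cells, at -0.35 (adjusted p = 0.0262), a call lost without null replicate 1 or 3 or het replicate 1 or 3 (adjusted p of up to 0.0962). In het against wt cells limma called 0 neighbours in either direction, where 0.697% of all genes tested rose and 0.697% fell. At unadjusted p under 0.05, 1 was higher and 0 lower, and the differences were -0.20 to 0.41. Within the cluster itself, Ifitm1 and Ifitm3 rose in null cells and their flanking members Ifitm2 and Ifitm6 gave 0.17 and -0.29.

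**Figure D3:**
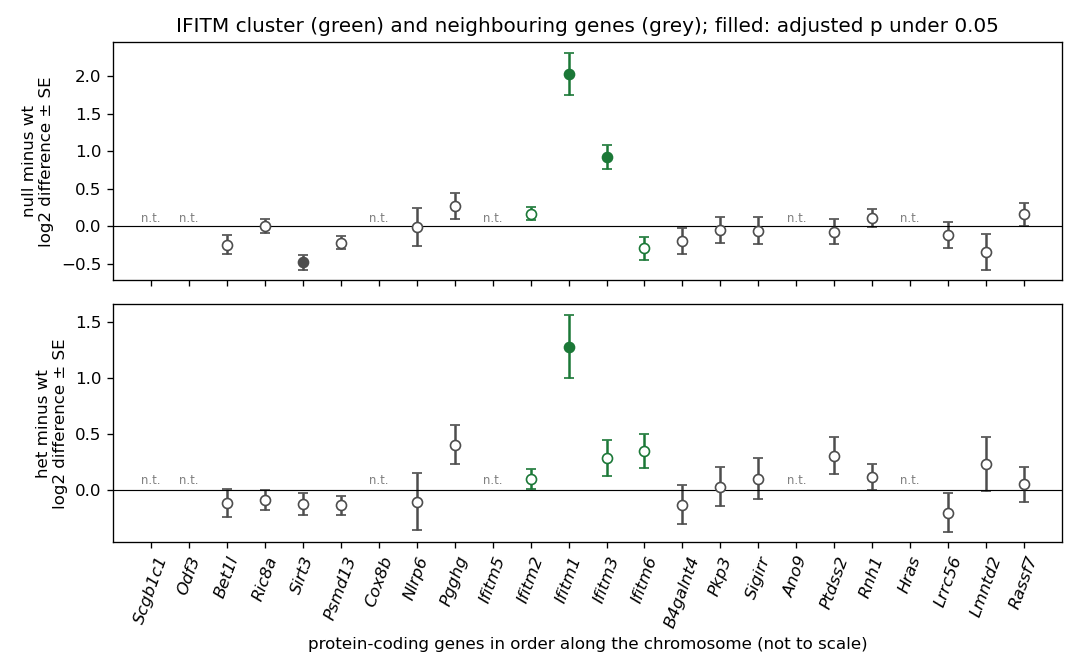
Log2 differences ± SE of the 4 IFITM genes (green) and the nearest protein-coding genes on each side (grey) in order along the chromosome, for null minus wt (top) and het minus wt (bottom); n.t. marks genes not tested and filled points an adjusted p under 0.05. Ifitm1 stands above all other genes in both panels, and the tested neighbours lie between -0.48 and 0.41.

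Other interferon-stimulated genes rose beside Ifitm1 and Ifitm3 in null cells. Of 37 listed genes without the IFITM family, 34 were on the array and 29 were tested. Ifit3, Oas3, Oasl2, Mx2 and Ch25h were below the signal filter. In null against wt cells, where 7.6% of all genes tested rose and 8.09% fell, 13 of the 29 rose and 0 fell (limma; 19 higher and 0 lower at unadjusted p under 0.05), with a median of 0.465 where all genes had -0.043. The count was 8 to 12 with 1 array left out, 8 of them without wt replicate 3 and 11 without wt replicate 2. Oas1a, a sensor enzyme for double-stranded RNA, had signals of 323, 287 and 254 in null, 182, 174 and 239 in het, and 129, 142 and 102 in wt cells, and rose by 1.14 in null against wt (limma adjusted p = 0.000146). Its 3 groups did not overlap, as for Ifitm1. The antiviral enzyme gene Rsad2 (1.11, adjusted p = 0.00123), the chaperone gene Rtp4 (1.04, adjusted p = 0.00122) and the nucleotide kinase gene Cmpk2 (0.75, adjusted p = 0.000151) rose as well. Not all listed genes moved. Ifit1 (0.26), Ifih1 (0.01), Mx1 (0.0001) and Bst2 (-0.26) did not pass in null against wt.

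In het against wt cells, where 0.697% of all genes tested rose and 0.697% fell, 3 of the 29 rose and 0 fell (limma; 9 higher and 1 lower at unadjusted p under 0.05), with a median of 0.137 where all genes had -0.008. The 3 were named after their values were seen: Ifi27 (0.90), Oas1a (0.63) and Trim30a (0.42), with limma adjusted p of 0.0113, 0.0453 and 0.0318. The count was 0 without het replicate 2 or het replicate 3, and 1 without wt replicate 1. Rsad2, Rtp4 and Cmpk2 gave 0.10, 0.15 and 0.23 in het against wt (adjusted p of 0.88, 0.801 and 0.316), and each rose in null against het cells, by 1.01, 0.89 and 0.53. In null against het, where 6.84% of all genes tested rose and 7.49% fell, 8 of the 29 rose and 0 fell (limma; 11 higher and 1 lower at unadjusted p under 0.05), with a median of 0.185 where all genes had -0.029. This list shares genes with an interferon list already examined in these data, so its direction is no independent evidence.

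**Figure D4:**
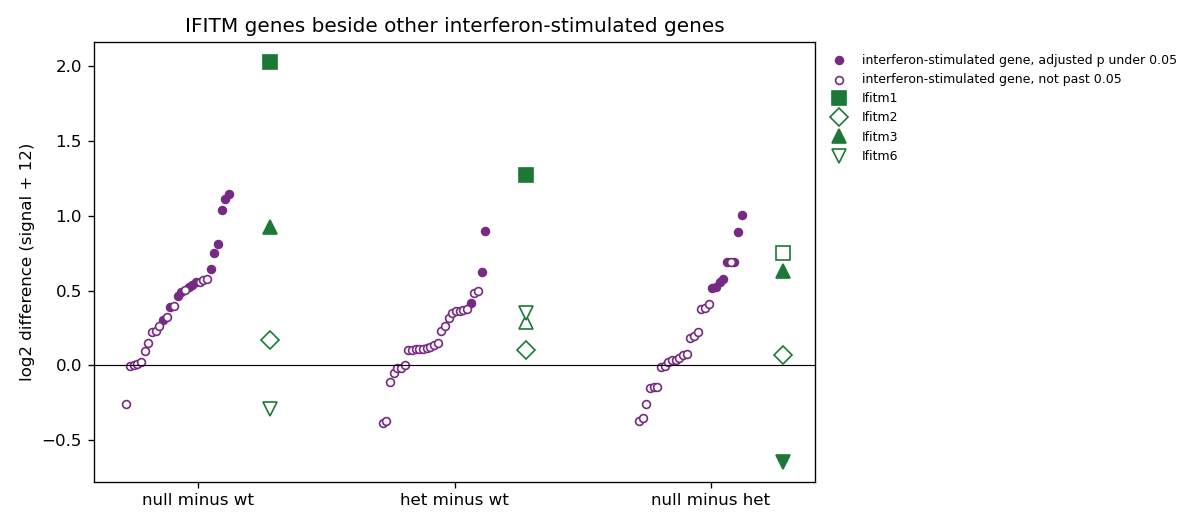
Log2 differences of 29 interferon-stimulated genes (purple circles, ordered by value) and of the 4 IFITM genes (green symbols) in null minus wt, het minus wt and null minus het; filled symbols have an adjusted p under 0.05. Ifitm1 at 2.03 and 1.28 lies above every listed gene in the first and second comparison, and Ifitm3 at 0.92 lies among the highest in null minus wt.

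The genes that carry the interferon signal include receptor chains, kinases and transcription factors. Of 15 tested receptors and signalling genes, 5 rose and 1 fell in null against wt cells (median 0.152 where all genes had -0.043), where 7.6% of all genes tested rose and 8.09% fell. Irf9, the DNA-binding partner of the STAT proteins, rose by 0.67 (limma adjusted p = 0.00218), and Il10rb, a chain shared by the interferon-lambda and interleukin-10 receptors, by 0.62 (adjusted p = 0.00493). The receptor gene Ifngr2 (0.51, adjusted p = 0.038) and the kinase gene Jak1 (0.32, adjusted p = 0.0377) were close to the threshold, and each was lost in 5 of the 9 fits with 1 array left out. The transcription factor gene Irf1 (0.31, adjusted p = 0.038) and Irf8, the 1 gene that fell (-0.37, adjusted p = 0.0436), were lost in 6 and 7 of those fits. In het against wt cells limma called 0 of these genes, with 3 higher and 0 lower at unadjusted p under 0.05. Of all genes tested 0.697% rose and 0.697% fell in that comparison, so 0 calls in a list this short say little. In null against het, where 6.84% of all genes tested rose and 7.49% fell, 2 rose, Il10rb by 0.85 and Jak1 by 0.49, and 2 fell, Irf3 by 0.58 and Irf8 by 0.66.

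Enzymes that modify IFITM proteins and proteins that bind them were covered by a short list. Of 8 genes tested, 1 rose and 0 fell in null against wt (limma; 2 higher and 0 lower at unadjusted p under 0.05). That count is read beside the 7.6% of all genes tested that rose and the 8.09% that fell. Setd7, a lysine methyltransferase that modifies IFITM3, had signals of 796, 852 and 827 in null, 624, 639 and 610 in het, and 542, 565 and 577 in wt cells, and rose by 0.54 in null against wt (limma adjusted p = 0.000269) and by 0.39 in null against het (adjusted p = 0.00319). Zdhhc20, a palmitoyltransferase that acts on IFITM3, gave 0.28 in null against wt (adjusted p = 0.0921) and rose by 0.47 in null against het (adjusted p = 0.00851). Zmpste24, a protease that works with IFITM proteins, and Vapa, a membrane contact protein that binds IFITM3, gave 0.12 and 0.10 in null against wt (adjusted p of 0.304 and 0.361). In het against wt cells limma called 0 of the 8, also at unadjusted p under 0.05, where 0.697% of all genes tested rose and 0.697% fell.

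The genes whose values ran most like each member over the 9 arrays were found by the root mean square (RMS) difference of log2 values, each gene's own mean taken off. For Ifitm1 they were Grb10, a growth factor receptor adaptor (0.36), Tfr2, a transferrin receptor (0.44), and Hmga2, a fetal chromatin protein (0.47), where the median gene differed from Ifitm1 by 0.97. Hmga2 rose by 2.46 in null and by 1.22 in het against wt cells. Grb10 and Tfr2 rose by 1.21 and 1.09 in null against wt (limma adjusted p of 0.00476 and 0.00713). In het against wt they gave 0.82 and 0.66 and did not pass (adjusted p of 0.143 and 0.246). For Ifitm3 they were Clvs1 (0.15), Rtp4 (0.16) and the kinase gene Pim1 (0.17), against a median of 0.50, and Rtp4 is one of the interferon-stimulated genes above. Ifitm6 ran closest to Nsa2 (0.10), the repair gene Neil1 (0.12) and the ribonuclease gene Rnase6 (0.12), against a median of 0.35. Ifitm2 ran closest to Uchl5, Hspd1 and Trip13 (0.04 each), against a median of 0.23, and 0 of these 3 passed in limma in any comparison. Among the members themselves, Ifitm2 and Ifitm6 differed by 0.32, Ifitm2 and Ifitm3 by 0.36 and Ifitm1 and Ifitm3 by 0.59, and Ifitm1 and Ifitm6 by 1.05. Genes near a flat gene are flat as well, so a small RMS difference is read only beside its own median. The genes named here were picked for their likeness over the same 9 arrays. Their differences therefore follow from that choice and are no independent evidence.

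Markers of other cell types moved with some of these values, and in sorted bulk cells fewer cells of a type and less RNA per cell cannot be told apart. List counts in null against wt are read beside the 7.6% of all genes tested that rose and the 8.09% that fell. Those in null against het are read beside 6.84% and 7.49%. Of the stem and multipotent progenitor genes 3 of 9 tested rose in null against wt and 0 fell (limma; 3 higher and 1 lower at unadjusted p under 0.05), Hoxa9 by 2.19, Prom1 by 1.13 and Hlf by 0.56. The Hlf call was lost without null replicate 1 or 2 or wt replicate 1 or 3 (adjusted p of up to 0.104). The list's median difference was 0.009 where all genes had -0.043, and the summed signal of the 10 genes on the array was 3009 to 3012 in null, 953 to 1171 in het and 922 to 1606 in wt arrays. Most of that sum in null cells came from Hoxa9, with means of 1424 in null, 246 in het and 351 in wt cells, and Prom1, with 1300.4 in null, 502 in het and 583 in wt cells. In null against het 2 of the 9 rose and 0 fell, Hoxa9 by 2.485 and Prom1 by 1.35 (limma; 3 higher and 0 lower at unadjusted p under 0.05). Of the basophil, mast cell and eosinophil genes 4 of 10 rose and 1 fell in null against wt, led by the eosinophil genes Siglecf (0.95) and Epx (0.94), while the IgE receptor chain Fcer1a fell by 2.25. The calls of the eosinophil granule genes Prg2 (0.63) and Prg3 (0.55) were lost in 4 and 5 of the 9 fits with 1 array left out. The summed signal of this list over 13 genes was 6546 to 8805 in null, 5001 to 5446 in het and 5068 to 7418 in wt arrays. In null against het 4 of the 10 rose and 0 fell (limma; 7 higher and 0 lower at unadjusted p under 0.05). The median was 0.501 where all genes had -0.029. The 4 were Siglecf, Mcpt8 (0.61), Cpa3 (0.56) and Hdc (0.44), and the Mcpt8 and Hdc calls held in 5 and 6 of the 9 left-out fits. Fcer1a gave 0.86 there and did not pass. In the stem list Mecom, and in the second list Cma1, Tpsb2 and Il5ra, were below the signal filter. The part of these cells in the Ifitm1 and Ifitm3 values was not tested.

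Wt replicate 2, which had the highest Ifitm1 and Ifitm3 of the wt arrays, was also the highest wt array for several lists and the lowest for others. Its median centred log2 value was 0.32 for the stem list against -0.10 and -0.24 on the other wt arrays, 0.20 against -0.28 and -0.18 for basophil, mast cell and eosinophil genes, and 1.295 against -0.60 and -0.72 for erythroid genes. For megakaryocyte and platelet genes it was 0.43 against -0.10 and -0.02, and for interferon-stimulated genes -0.073 against -0.205 and -0.293. For mature neutrophil genes it was 0.846 against 0.114 and 0.351. Dendritic cell genes gave 0.334 against 0.009 and 0.222, and T and NK genes 0.293 against 0.192 and 0.242. It was the lowest wt array for monocyte and macrophage genes, at -0.26 against 0.11 and 0.06, for GMP markers, at -0.09 against 0.03 and -0.01, and for B lymphoid genes, at 0.05 against 0.22 and 0.18. The summed erythroid signal over 8 genes was 1136 to 1338 in null, 1215 to 1602 in het and 929 to 2553 in wt arrays, with Hba-a1 and Alas2 below the filter. That of megakaryocyte genes, also 8, was 215 to 324 in null, 152 to 201 in het and 130 to 449 in wt arrays, with Vwf and Ppbp below it. Limma called 0 of 6 erythroid genes in all 3 comparisons with all arrays, also at unadjusted p under 0.05. Over all genes tested, 7.6% rose and 8.09% fell in null against wt in that fit. The shares were 0.697% and 0.697% in het against wt, and 6.84% and 7.49% in null against het. Without wt replicate 2, an alternative chosen after seeing the data in which Ifitm1 was 1.74 higher in het than in wt cells, 3 of the 6 rose in het against wt, Klf1 by 1.41, Car2 by 1.18 and Ermap by 1.07 (limma adjusted p of 0.0248, 0.0337 and 0.0243). In null against het 2 then fell, Car1 by 0.96 and Ermap by 0.91 (adjusted p of 0.0305 and 0.0057), and in null against wt 0 were called. These counts are read beside all 12347 genes tested. With 1 array left out, 99 to 169 of them were called in het against wt. The ranges were 1033 to 1897 in null against het and 1258 to 1938 in null against wt. The part of erythroid cells in the Ifitm1 values was not tested. With all arrays limma called 1 of 6 megakaryocyte genes, Selp, higher in null against wt, by 2.01. That call was lost without null replicate 2 or 3 or wt replicate 1 or 3 (adjusted p of up to 0.0915). Without wt replicate 2 Selp was higher in all 3 comparisons, by 2.92 in null against wt, 1.63 in het against wt and 1.29 in null against het.

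**Figure D5:**
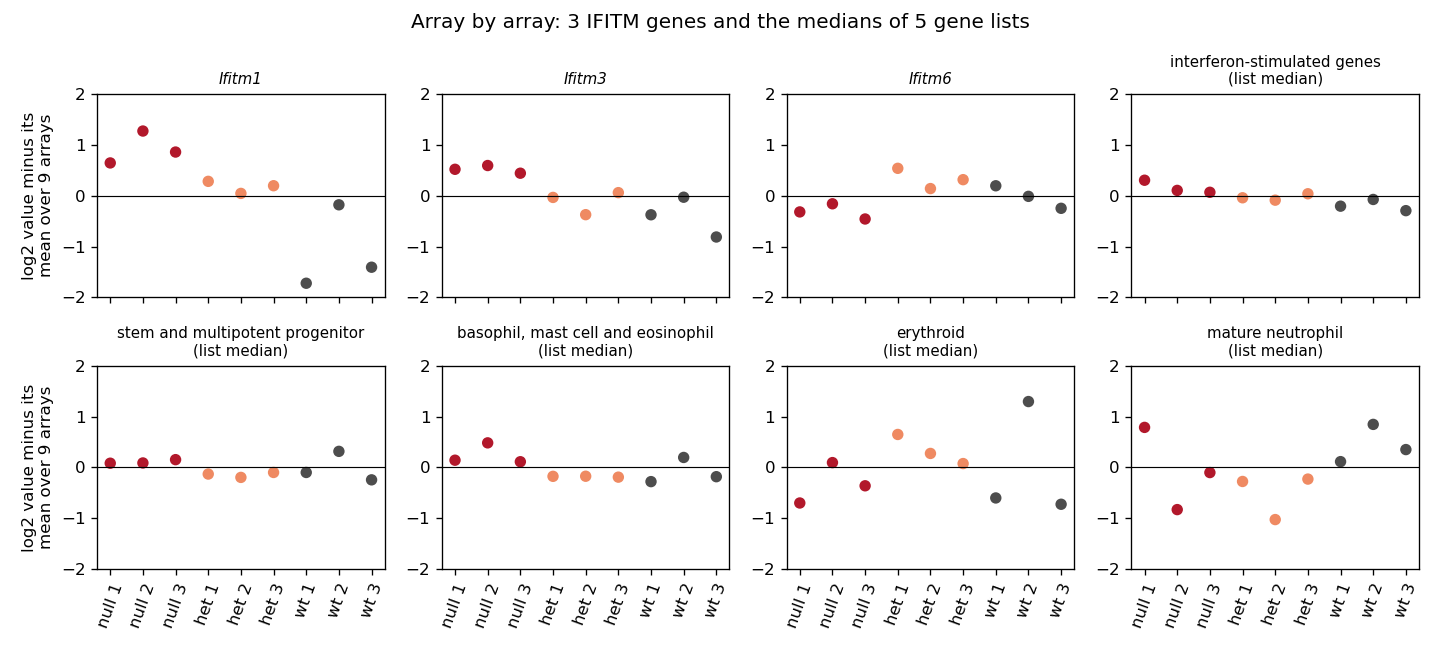
Log2 value minus its mean over the 9 arrays (vertical axis) for Ifitm1, Ifitm3 and Ifitm6 and for the medians of 5 gene lists, array by array (null 1 to 3, het 1 to 3, wt 1 to 3). Wt 2 lies above the other wt arrays for Ifitm1, Ifitm3 and each list shown, and its erythroid median of 1.295 is the highest of all arrays.

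The remaining lists are given for null against het cells, where Ifitm6 fell, and for other comparisons where more genes were called. Of all genes tested, 6.84% rose and 7.49% fell in null against het, and 7.6% rose and 8.09% fell in null against wt. For het against wt these shares were 0.697% and 0.697%. Of 9 dendritic cell genes 2 fell and 0 rose in null against het (limma; 4 lower and 0 higher at unadjusted p under 0.05), the class II chain genes H2-Aa by 1.55 and H2-Eb1 by 0.79, and the summed signal over 10 genes was 215 to 278 in null, 406 to 548 in het and 387 to 521 in wt arrays, with Xcr1 below the filter. Of 10 monocyte and macrophage genes 1 rose and 2 fell in null against het, Cd14 rising by 2.04 while Irf8, a factor of monocyte fate, fell by 0.66 and Klf4 by 0.79 (a call lost in 4 of the 9 fits with 1 array left out), with a summed signal of 9771 to 10972 in null, 10762 to 12001 in het and 8230 to 11502 in wt arrays. In null against wt 3 of these genes rose and 3 fell (limma; 4 higher and 3 lower at unadjusted p under 0.05). Cd14 rose by 1.14, Fn1 by 1.29 and Ccr2 by 0.75, and Klf4 fell by 0.66, Ctss by 0.44 and Irf8 by 0.37. With 1 array left out, the Ccr2, Klf4 and Irf8 calls held in 2 of 9 fits and the Ctss call in 4. In het against wt 0 rose and 1 fell, Cd14 by 0.90. The immunoglobulin gene Ighm, 1 of 4 B lymphoid genes tested, fell by 1.17 in null against het, to a mean of 407 in null, against 927 in het cells. The other tested B lymphoid genes gave -0.16 for Cd79b, -0.16 for Vpreb1 and 0.07 for Ms4a1, and did not pass. The B lymphoid sum over 7 genes was 556 to 664 in null, 1088 to 1199 in het and 1195 to 1449 in wt arrays, with Cd79a, Pax5 and Ebf1 below the filter. Ighm, with a mean of 1105 in wt cells, made up most of that sum in each group. Mature neutrophil genes had a summed signal of 2536 to 9400 in null, 2840 to 5183 in het and 4285 to 8228 in wt arrays with Mmp9 below the filter, and in null against het 1 of 9, Lcn2, rose by 2.07 and 0 fell (limma; 2 higher and 0 lower at unadjusted p under 0.05). In het against wt, where Ifitm1 rose, 4 of the 9 neutrophil genes fell and 0 rose (limma; 5 lower and 0 higher at unadjusted p under 0.05; median -1.068), the granule and secreted protein genes Chil3 by 2.29, Ltf by 1.97, Ngp by 1.86 and Lcn2 by 1.78, and without wt replicate 2 the count was 3. The Chil3 call was lost in 5 of the 9 fits with 1 array left out, and the Ngp call without het replicate 2. In null against wt 2 of the 9 fell and 0 rose (limma; 2 lower and 0 higher at unadjusted p under 0.05; median -0.292), Ngp by 2.12 and Ltf by 2.09. The part of neutrophils in the Ifitm1 and Ifitm3 values was not tested. T and NK genes summed over 8 genes to 775 to 1005 in null, 949 to 1032 in het and 1190 to 1223 in wt arrays, with Cd3e, Cd3d, Cd4, Ncr1 and Gzma below the filter, and endothelial and stromal genes to 227 to 343 in null, 206 to 218 in het and 212 to 264 in wt arrays, with Col3a1 below it. Nkg7 made up most of the T and NK sum, with means of 859 in null, 936 in het and 1129 in wt cells. Limma called 2 of 3 T and NK genes lower in null against wt, Nkg7 and Klrd1, the Klrd1 call being lost in 7 of the 9 fits with 1 array left out (adjusted p of up to 0.138), wt replicate 2 among them. It called 0 of 7 endothelial and stromal genes in null against wt (1 higher and 0 lower at unadjusted p under 0.05) and 1 higher in null against het, Vcam1 by 0.64, a call lost in 6 of the 9 such fits. Among the 14 GMP markers 3 rose and 1 fell in null against wt (limma; 4 higher and 3 lower at unadjusted p under 0.05). The Fc receptor genes Fcgr2b and Fcgr3 rose by 0.64 and 0.37 and the receptor gene Csf2rb by 0.53, while the receptor gene Csf3r fell by 0.38. Each of the 3 rises held in all 9 fits with 1 array left out. The Csf3r call held in 6 of the 9 fits with 1 array left out. The part of these cells in the Ifitm1, Ifitm3 and Ifitm6 values was not tested.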

How the data were processed

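Signals of 9 Affymetrix arrays were used as deposited by the authors, as linear intensity values from MAS5, per the submitters' processing notes, with no version or settings given in the sources used here. The 2% trimmed mean was 100 on every array, so a shift shared by most transcripts cannot be seen. No detection calls were used. Probe sequences were not used, so cross-hybridisation between IFITM genes was not checked.

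Names came from the platform annotation, with 34741 of 34945 single-symbol probe sets matched to RefSeq (GRCm38.p6) by Entrez identifier. For each gene the probe set with the highest mean log2 value was kept. A pseudocount of 12 was added before taking log2, which understates changes of dim genes, and genes below the 40th percentile of means (signal 8.49) were left out. This gave 12347 tested genes. The 3 groups were fitted together in limma 3.58.1 (R 4.3.3, intensity trend), two-sided, with Benjamini-Hochberg adjustment over all tested genes and calls at 0.05. The fit was tested on simulated data. An exact permutation test of 3 against 3 arrays cannot go below p = 0.1. The number of arrays limits precision.

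The members, lists and tests were chosen with earlier results of these data known. Named genes are the members, Dicer1, Xist, Eif2s3y, Ifi202b, up to 4 genes per list (those ranked first by p for null minus wt), called neighbours and the 3 nearest genes by RMS difference, and other names were picked once values were known. The 15 lists came from general knowledge, and Bst2, Csf1r, Flt3 and Irf8 are each in 2 of them. Alternatives changed the pseudocount, filter, normalization, variance prior, arrays fitted, weights, probe set rule and replicate block, and left out each array.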

Additional observations from a re-analysis of the deposited data

How the results depend on the processing

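In null against wt cells Ifitm1 (1.72 to 2.49) and Ifitm3 (0.72 to 1.11) passed under all 20 alternatives, and the 12 IFITM differences kept their sign under each. The Ifitm1 rise in het against wt cells was lost in 8 of 20. With 1 array left out, the genes called numbered 1258 to 1938 in null against wt (main 1937), 99 to 169 in het against wt (172) and 1033 to 1897 in null against het (1770). The IFITM genes called were then 0 to 1 in het against wt and 1 to 3 in null against het, those in the fit over probe sets 0 to 1 and 0 to 3, and the interferon-stimulated genes, an alternative added after seeing the data, 8 to 12 in null against wt and 0 to 3 in het against wt. Without the intensity trend 1290, 83 and 1103 genes were called, with 0 IFITM genes in het against wt (Ifitm1 adjusted p = 0.184) and 1 in null against het (Ifitm3 adjusted p = 0.0699), likewise over probe sets. With no filter, which adds dim genes to the adjustment, 112 genes and 0 IFITM genes passed in het against wt (Ifitm1 adjusted p = 0.109), and over probe sets 0 there and 1 in null against het. With each gene taken as the mean of its probe sets, 86 genes and 0 IFITM genes passed in het against wt (adjusted p = 0.0908). Over probe sets, 0 passed in het against wt with a pseudocount of 1, with cyclic loess and with only the 2 groups compared. The cause was not tested. The replicate numbers are not said to mark a shared litter or day. Deviations of same-numbered arrays correlated at -0.03 to 0.14 and those of differently numbered arrays at -0.15 to 0.09. These ranges overlap, so whether same-numbered arrays were paired cannot be told from them. With the replicate block 2111, 201 and 1934 genes were called, and 2, 1 and 3 IFITM genes, the added one being Ifitm1 in null against het (adjusted p = 0.0417). Signals have no detection calls here, so the limit for dim probe sets is unknown.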
